A study of Drosophila melanogaster with 6 samples.

Results

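Gcn5 peaks were examined at the early ecdysone genes br, Eip74EF and Eip75B of Drosophila melanogaster. The members were chosen by position. A peak belonged to a gene when it touched X:1455000-1590000 for br, 3L:17550000-17650000 for Eip74EF or 3L:17940000-18080000 for Eip75B, on the dm3 build that the submitters name. These windows of 135, 100 and 140 kb held 55 of the 14386 peaks in the 3 deposited lists. The Kc GFP RNAi list gave 17 of its 5096 peaks, the Kc CP190 RNAi list 23 of 4228 and the S2 GFP RNAi list 15 of 5062. Peaks that overlapped by at least 1 bp were joined across lists into 36 sites, of which 7 lay at br, 11 at Eip74EF and 18 at Eip75B.

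Gcn5 is the histone acetyltransferase of the SAGA and ATAC coactivator complexes, and CP190 is a zinc-finger protein found at insulators and promoters. Gcn5-bound chromatin was immunoprecipitated and sequenced (ChIP-seq) from Kc and S2 cells, which are cell lines of embryonic origin. All cultures had received double-stranded RNA, at 90 µg per 6000000 cells. It was directed against GFP in the control libraries of both lines and against CP190 in a second Kc library. A matching input library exists for each of these 3 Gcn5 libraries and was not analysed here. The labels name no added hormone, and knockdown of CP190 cannot be checked in peak lists. Each condition had 1 library, so no difference below has a replicate check and no p-value is given. A peak that is absent from a list was not called there, at a sequencing depth that is unknown.

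The steroid hormone 20-hydroxyecdysone triggers moulting and metamorphosis by binding the Ecdysone receptor, a nuclear receptor that acts as a heterodimer with Ultraspiracle. Early genes are direct targets of this receptor, and their products in turn regulate a larger set of late genes. The early puffs of the salivary gland polytene chromosomes are the sites of such genes. The gene br encodes the Broad family of transcription factors, which share a BTB domain and differ in their zinc fingers. Eip74EF encodes ETS-domain transcription factors, and Eip75B encodes nuclear receptors related to mammalian Rev-Erb. All of these are long genes with several promoters, and cultured Kc cells are a classical system for the ecdysone response.

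No annotation of dm3 was used, so a peak could not be placed at a promoter, exon or intron. The gene order of Release 6, another assembly, gives only the neighbours. In it Eip74EF lies between CycT and Vps60, and Eip75B lies between CG5290 and CG44006 and has CG32192 and CG42393 within its span. There br lies within the span of Mur2B, with inc and dor as the nearest genes that do not overlap it. A peak near the end of a window may therefore belong to a neighbour. One inside the br or Eip75B window may likewise belong to a gene that overlaps br or Eip75B. No sequence is shown, since none of the dm3 build was at hand.

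The loci differed in how much Gcn5 was called and in which library. By peak number Eip74EF was the most densely occupied in both Kc lists, and Eip75B, narrowly, in the S2 list. By the share of the window inside peaks, given below, Eip74EF led in every list. Eip74EF had 7 peaks per 100 kb in the Kc control, 9 after CP190 RNAi and 6 in S2 cells. Over the whole of 3L the same lists held 3.72, 2.95 and 4.17 peaks per 100 kb. Eip75B was closer to its arm in the control, at 4.29 peaks per 100 kb, and stood at 6.43 in both other lists. The br window was sparser than X in the control, at 2.96 against 3.76 peaks per 100 kb. After CP190 RNAi it held 3.7 against 3.19, and in S2 cells it held none against 3.77.

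**Figure D1:**
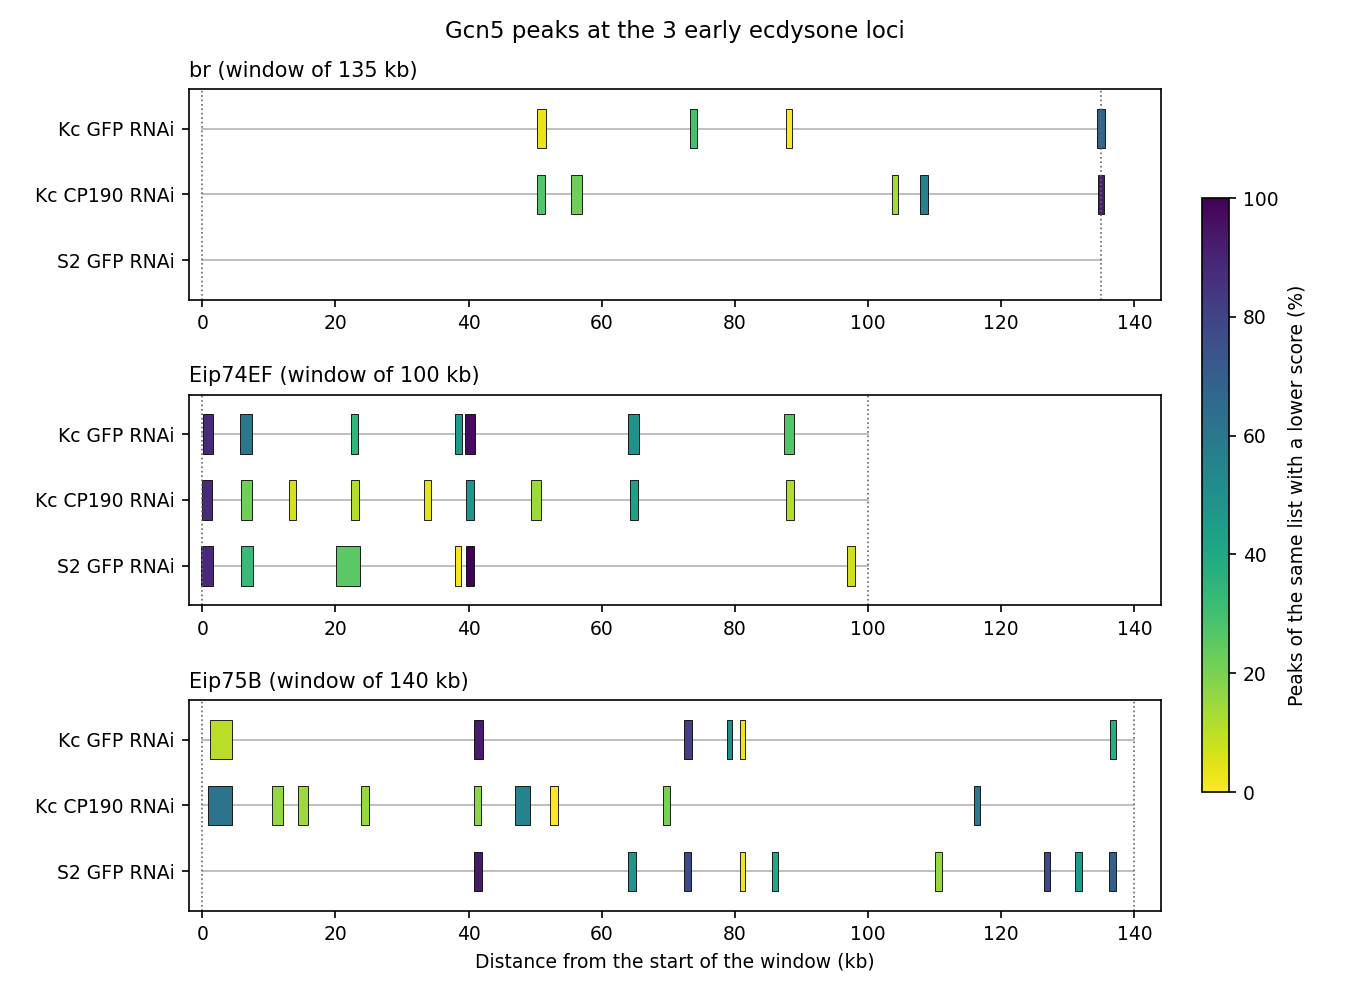
Gcn5 peaks drawn to scale at br, Eip74EF and Eip75B, with the distance from the start of each window in kb on the horizontal axis and 1 row per peak list. Colour gives the share of peaks of the same list with a lower score, and dotted lines mark the ends of the window. The S2 row is empty at br, and the Kc CP190 RNAi row of Eip75B is filled mainly on the left, with 8 of 9 peaks, where the S2 row holds 2 of 9.

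Measured by bases, peaks covered 9.96% of the Eip74EF window in the control, 11.9% after CP190 RNAi and 10.3% in S2 cells. The shares of 3L inside peaks were 5.94%, 4.91% and 6.3%. At Eip75B the covered shares were 5.8%, 10.3% and 6.69%. Peaks at br covered 2.88% of the window in the control and 4.19% after CP190 RNAi, beside 6.08% and 5.11% of X. Eip74EF therefore lay above its arm in all 3 lists on both measures, and br lay below X on both measures in the control and S2 lists. After CP190 RNAi br was above X in peaks per 100 kb and below it in the share of bases covered.

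**Figure D2:**
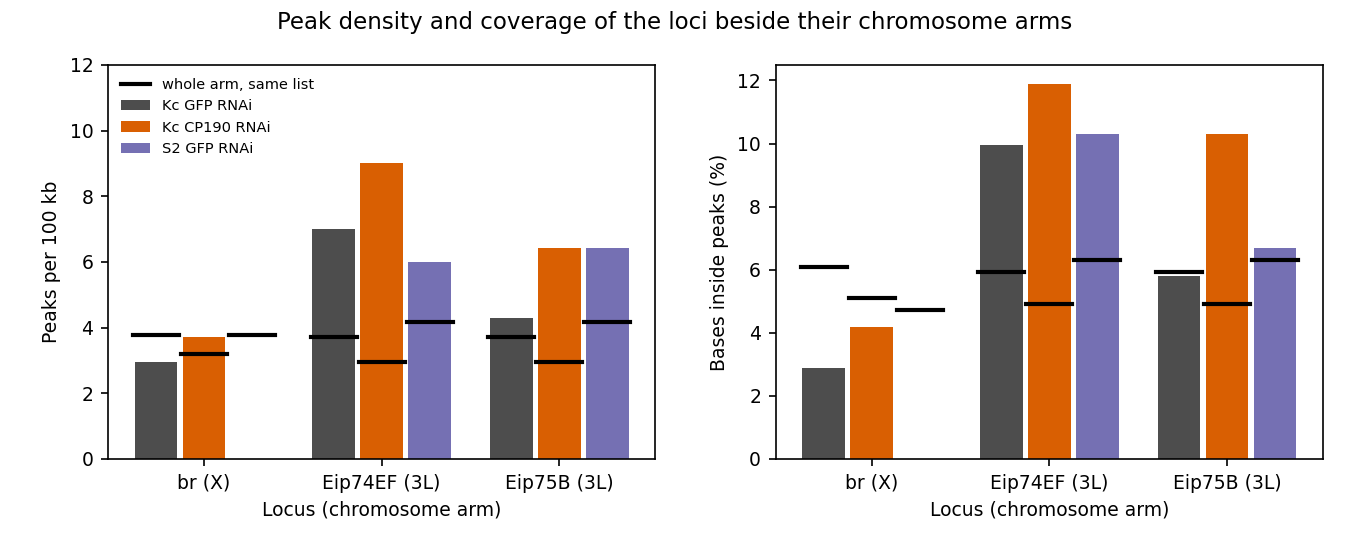
Peaks per 100 kb (left) and percent of bases inside peaks (right) for each locus and list, as bars from 0, with a black line at the value of the whole chromosome arm in the same list. The Eip74EF bars exceed their arm in all 3 lists, and br has no S2 bar.

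Together the loci held more peaks after CP190 RNAi than in the control, although the CP190 RNAi list is the shorter. They took 0.334% of the control list (95% exact binomial interval 0.194 to 0.534%), 0.544% of the CP190 RNAi list (0.345 to 0.815%) and 0.296% of the S2 list (0.166 to 0.488%). These intervals overlap and cover counting error only. The excess varied with the windows. Widened by 10 kb at each end, they held 21 control and 23 CP190 RNAi peaks, and narrowed by 10 kb 12 and 19. The excess also rested on low scores. Among peaks with a score of 100 or more, the loci held 11 in the control, 7 after CP190 RNAi and 9 in S2 cells, or 0.329%, 0.299% and 0.267% of the peaks at that score. Scores are the authors' values, as their peak caller gave them. They serve here to place a peak within its list and to set the minimum of 100. That minimum is not an equal cut, since 65.5% of the control list, 55.4% of the CP190 RNAi list and 66.6% of the S2 list reach it.

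At br, a gene needed for the larval to pupal transition, the Kc lists held peaks at 7 sites and the S2 list held none. The highest-scored site in both Kc lists lay at the upper end of the window. The control peak there, at X:1589454-1590539, had a score of 206.29 and rank 1651 of 5096. The CP190 RNAi peak, at X:1589477-1590483, had a score of 285.84 and rank 347 of 4228. Both extend past the end of the window, so this site may also belong to a gene beyond it.

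The second br site common to the Kc lists lay at X:1505220-1506636. Its control peak had a score of 53.64, above 3.38% of the list, and its CP190 RNAi peak 75.83, above 27.1% of the list. The control list alone had peaks at X:1528212-1529260, with a score of 91.61, and at X:1542734-1543643, with a score of 51.10. The CP190 RNAi list alone had peaks at X:1510452-1512027, X:1558550-1559523 and X:1562770-1564070, with scores of 68.68, 60.37 and 119.34. The unshared control peaks stood above 29.6% and 0.726% of their list, and the 3 CP190 RNAi peaks above 21.6%, 13.5% and 55.9% of theirs. The nearest control peak to these 3 CP190 RNAi peaks was 3815, 14906 and 19126 bp away.

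In S2 cells br lay inside a stretch without any called Gcn5 peak, from X:1454845 to X:1666217. At 211.4 kb it was the third longest of the 845 intervals between neighbouring S2 peaks on X, where the median interval was 12.5 kb and the longest 330.1 kb. In the Kc lists the longest interval that reaches into the window was 50.4 kb in the control and 97.8 kb after CP190 RNAi. The first 50.2 kb of the br window held no peak in any list.

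The absence of S2 peaks at br depends on where the window starts. Just outside it, 0.156 kb below the start, S2 cells had a peak at X:1453725-1454844 with a score of 678.13 and rank 604. The Kc control had a peak at the same place, X:1453709-1454805, with a score of 411.76 and rank 512, and the CP190 RNAi list had none nearer than 47.6 kb from the window. Above the window the next S2 and control peaks began 76.2 kb away and the next CP190 RNAi peak 77.2 kb away.

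Eip74EF, whose ETS-domain products regulate late genes, had the strongest single site of the set. It lay at 3L:17589490-17590890. Its S2 peak had a score of 2546.70, rank 22 of 5062, and its Kc control peak 639.66, rank 150 of 5096. Its CP190 RNAi peak had a score of 104.13 and rank 2229 of 4228, so that 47.3% of that list scored lower. It was the highest-scored Eip74EF peak in both control libraries and stood second of 9 after CP190 RNAi. The centres of the control and S2 peaks were 3 bp apart, and those of the control and CP190 RNAi peaks 21.5 bp apart.

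The other high site of Eip74EF lay at the lower end of the window, at 3L:17549874-17551610. The control peak had a score of 375.96 (above 87.9% of its list), the CP190 RNAi peak 243.96 (above 88.1%) and the S2 peak 718.32 (above 89%). This site held nearly the same place in all 3 lists, and it was the first of the locus after CP190 RNAi. It crosses the lower end of the window in the CP190 RNAi and S2 lists, so its gene is uncertain.

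Of the remaining Eip74EF sites, a further 2 were called in all 3 lists. At 3L:17555590-17557662 the control, CP190 RNAi and S2 scores were 174.96, 69.08 and 98.61. At 3L:17570045-17573624 they were 100, 58.36 and 83.36, and the S2 peak there, 3580 bp wide, was the widest S2 peak of the set. The Kc peaks over it were 1095 and 1146 bp wide and lay at its upper end. All 4 sites found in every list at Eip74EF lay below the middle of the window.

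The Kc lists shared a further 2 Eip74EF sites that had no S2 peak. At 3L:17613974-17615605 the control score was 137.73 and the CP190 RNAi score 96.80. At 3L:17637436-17638948 they were 86.26 and 59.13. Above the middle the window held 2 control peaks, both met after CP190 RNAi, and a single S2 peak at 3L:17646825-17647965 with a score of 57.26.

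A single control peak of Eip74EF had no CP190 RNAi peak over it. It lay at 3L:17587997-17589005 beside the strongest site, with a score of 126.94, and an S2 peak with a score of 50.60 covered 86.4% of it. The nearest CP190 RNAi peak was 620 bp away, over the strongest site. The CP190 RNAi list in turn had 3 peaks without a control peak, at 3L:17562968-17564123, 3L:17583292-17584411 and 3L:17599317-17600890. Their scores of 54.84, 53.08 and 61.61 lay above at most 14.7% of the list.

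Eip75B, which encodes nuclear receptors that bind haem, had the most sites, and most of them were called in a single list. Of its 18 sites, 1 was called in all 3 lists, 1 in both Kc lists and 3 in both control libraries. A further 7 were called after CP190 RNAi alone, 5 in S2 cells alone and 1 in the Kc control alone. At Eip74EF 4 of 11 sites were common to all 3 lists, and at br none of 7. Sites were not joined over the whole lists, so these counts have no genome-wide share beside them. Unshared peaks were common throughout: 42.2% of all control peaks and 63% of all S2 peaks had no CP190 RNAi peak. The counts therefore cannot be read as a trait of a locus.

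The site called in every list lay at 3L:17980757-17982094. It was the highest-scored Eip75B site in both control libraries, with a score of 460.98 and rank 376 in Kc cells and 931.93 and rank 346 in S2 cells. Its CP190 RNAi peak had a score of 64.12 and rank 3497, the fifth of 9 at the locus, so that 17.3% of that list scored lower. The leading control sites of Eip74EF and Eip75B thus stood below the median score of the CP190 RNAi list. Across the genome, 291 control peaks from the highest 10% of the list were met after CP190 RNAi, and the peak over them stood below the median of its list for 61 of these (21%). The median of these CP190 RNAi peaks scored above 86.5% of their list (quartiles 58.4 and 96%), and 23 stood as low as the Eip75B peak or lower. Control peaks from the highest 10% that had no CP190 RNAi peak at all are left out of these counts.

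**Figure D3:**
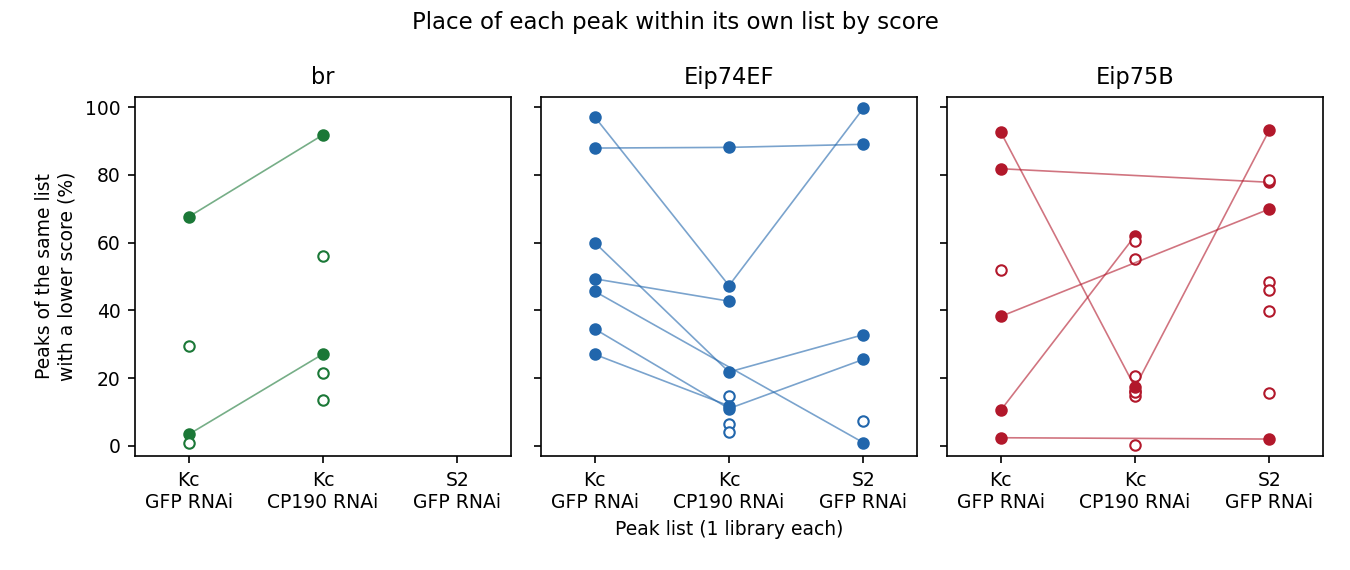
Each point is a Gcn5 peak, and the vertical axis gives the share of peaks of the same list with a lower score, in percent. Lines join peaks of the same site and pass over the middle column where no CP190 RNAi peak was called, and open points are sites called in a single list. The leading Eip74EF and Eip75B sites stand at 97.1 and 92.6% in the Kc control, 47.3 and 17.3% after CP190 RNAi and 99.6 and 93.2% in S2 cells.

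Both Kc lists had a wide peak near the lower end of the Eip75B window. It measured 3307 bp in the control, with a score of 62.76, and 3581 bp after CP190 RNAi, with a score of 133.91. The latter, at 3L:17940816-17944396, was the highest-scored CP190 RNAi peak of the locus and the widest of the set, and it ranked 1605 of 4228 by score and 145 by width. No S2 peak was called there.

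The 3 Eip75B sites common to both control libraries, and without a CP190 RNAi peak, all lay above the middle of the window at 3L:18010000. At 3L:18012344-18013537 the Kc score was 304.45 and the S2 score 403.87, above 81.8% and 77.8% of the respective lists. At 3L:18020748-18021551 they were 52.51 and 51.52, near the lowest score of either list. At 3L:18076131-18077200 they were 108.01 and 303.11. The fourth control peak without a CP190 RNAi peak, at 3L:18018774-18019605 with a score of 145.69, had no S2 peak either. The nearest CP190 RNAi peak was 2142 bp from the first of these 4 control peaks and 8516 to 19475 bp from the others.

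The CP190 RNAi peaks of Eip75B lay mostly below the middle. Split at the middle of the window, a division chosen after the positions were seen, the control had 2 peaks below and 4 above, the CP190 RNAi list 8 and 1, and the S2 list 2 and 7. The CP190 RNAi list alone called 6 sites below the middle. The highest of them was 3L:17987028-17989239, with a score of 118.04. The others lay at 3L:17950538-17952122, 3L:17954402-17955936, 3L:17963813-17965016, 3L:17992167-17993477 and 3L:18009187-18010257. With scores from 50.06 to 67.49 they stood above at most 20.6% of the list. Above the middle it called 3L:18055984-18056847, with a score of 129.27.

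S2 cells alone had 5 Eip75B sites, all but 1 of them above the middle of the window. The highest was 3L:18066391-18067387, with a score of 417.05 that exceeded 78.5% of the S2 list. The peaks at 3L:18003896-18005189, 3L:18025643-18026501 and 3L:18071150-18072156 had scores of 146.05, 115.97 and 137.02. The lowest, at 3L:18050090-18051097, had a score of 67.34. Just above the window, S2 cells and the Kc control again shared a place, with peaks at 3L:18080791-18081875 (score 556.78) and 3L:18080821-18082014 (score 262.32). The next CP190 RNAi peak began 27 kb above the window.

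Dependence of Gcn5 binding on CP190 is the subject of the series title. Over the 3 loci, 7 of 17 control peaks had no CP190 RNAi peak, or 41.2% (18.4 to 67.1%), beside 42.2% of all control peaks. The pooled share was near that of the list. By locus the counts were 2 of 4 at br, 1 of 7 at Eip74EF and 4 of 6 at Eip75B, beside 38.5% of control peaks on X and 45.6% on 3L. With so few peaks the exact intervals of Eip74EF (0.361 to 57.9%) and Eip75B (22.3 to 95.7%) overlap. With a score of 100 or more required in both lists, 8 of 11 control peaks (72.7%) had no partner, beside 54.5% of all control peaks at that score. At 4 further sites, the leading site of Eip75B among them, the CP190 RNAi score was under 100. No interval was computed for this share, and 11 peaks are too few to set it apart from that of the list.

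In the other direction, 13 of the 23 CP190 RNAi peaks had no control peak, or 56.5% (34.5 to 76.8%), beside 29.6% of the whole CP190 RNAi list. The counts were 3 of 5 at br, 3 of 9 at Eip74EF and 7 of 9 at Eip75B, beside 26.5% on X and 30.4% on 3L. The interval of the pooled share lay above the share of the list, but it covers counting error only and neighbouring peaks of 1 locus are not independent. Eip74EF, at 33.3%, was near its arm, so the excess was not shared by every locus. Most of the 13 peaks were weak. Of the 13, 10 stood in the lowest 25% of the CP190 RNAi list, beside 44.8% of all CP190 RNAi peaks without a control peak, and their scores ran from 50.06 to 129.27. In the whole list 16.7% of the CP190 RNAi peaks with a control peak stood that low. Low-scored peaks thus lacked a control peak more often across the list, and the pooled share was not matched for score.

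None of these 13 peaks overlapped an S2 peak, beside 23.5% of the CP190 RNAi peaks without a control peak in the whole list. The 3 of them at br could not, since the S2 list had no peak in that window. The 13 also stood lower by score, with a median above 15.8% of the list, beside 28.5% for that larger set. Of the 10 CP190 RNAi peaks with a control peak, 5 overlapped an S2 peak, beside 53.5% in the whole list. All CP190 RNAi peaks of the loci together overlapped an S2 peak in 5 of 23 cases, beside 44.6% of the list.

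The other comparison is between Kc and S2 cells with GFP RNAi. In the Kc control, 9 of 17 peaks overlapped an S2 peak (52.9%, 27.8 to 77%), beside 59.7% of the list. Of the 15 S2 peaks, 9 overlapped a Kc control peak (60%, 32.3 to 83.7%), beside 60.4% of the list. The pooled shares were near those of the lists. By locus, 0 of 4 control peaks were shared at br, beside 65.3% on X. Eip74EF and Eip75B were near their arm, with 5 of 7 (71.4%) and 4 of 6 (66.7%), beside 67.5% on 3L. A count of 0 of 4 allows a share of up to 60.2% by the exact interval. It also leaves out the overlapping control and S2 peaks that lie just below the br window. The CP190 RNAi list, by contrast, met 5 of the 15 S2 peaks, beside 37% of the S2 list, and 4 of these 5 lay at Eip74EF.

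Setting the 3 lists together, 4 of the 9 control peaks shared with S2 had no CP190 RNAi peak, beside 47.9% in the whole list. Of the 8 control peaks without an S2 peak, 3 had none, beside 33.9%. These counts are too small to show whether S2 status goes with the fate of a control peak at these genes.

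The centres of the 10 overlapping pairs of control and CP190 RNAi peaks were 16.5 to 253 bp apart with a median of 84.8 bp, beside a median of 64 bp over the 3001 such pairs of the whole lists (quartiles 26 and 145 bp). The 9 pairs of control and S2 peaks had a median of 82 bp, beside 82.8 bp over 3112 pairs. The largest distance, 1031.5 bp, belonged to the wide S2 peak at Eip74EF. Pairs were taken because they overlap, which limits how far apart their centres can lie. The smallest overlap of a control and CP190 RNAi pair was 74.5% of the control peak, at 3L:17613974-17615605.

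Control peaks that were met after CP190 RNAi were mostly wider than those that were not. The 7 control peaks without a CP190 RNAi peak were 733 to 1138 bp wide with a median of 910 bp. The 10 that were met were 1086 to 3307 bp wide with a median of 1397 bp. The ranges overlap. In the whole list the medians were 1110.5 and 1479.5 bp. Wide peaks meet another list more easily by their extent alone, and the part of this in the counts was not tested.

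**Figure D4:**
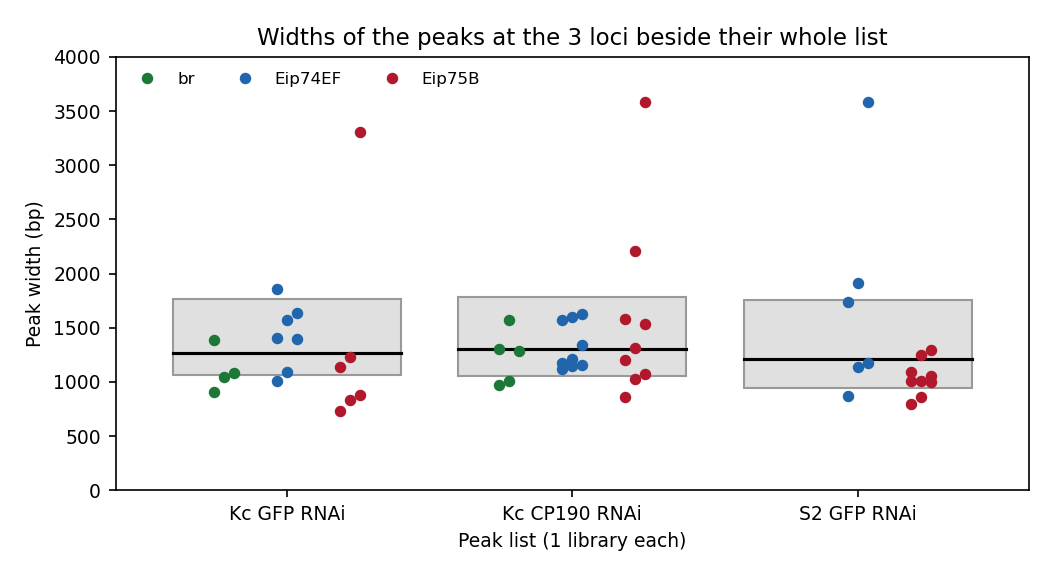
Width in bp of each peak at br, Eip74EF and Eip75B by list, with the quartiles of the whole list as a grey box and its median as a black line. The Kc control peaks of Eip75B lie below the median of their list, 1271 bp, except the wide one of 3307 bp.

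Compared with their lists, the peaks of the 3 loci were of ordinary width and, after CP190 RNAi, of low score. The median width was 1138 bp in the control, 1284 bp after CP190 RNAi and 1093 bp in S2 cells, beside 1271, 1307.5 and 1209 bp in the lists. The median peak scored above 45.6% of the control list, 20.6% of the CP190 RNAi list and 46.1% of the S2 list. In the CP190 RNAi list 14 of 23 peaks stood in the lowest 25%, against 4 of 17 in the control and 4 of 15 in S2 cells. The highest 10% of each list held 2 control peaks, 1 CP190 RNAi peak and 2 S2 peaks of these loci. These were the leading site of Eip74EF and that of Eip75B in both control libraries, and the site at the upper end of the br window after CP190 RNAi.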

How the data were processed

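Gcn5 ChIP-seq was carried out on formaldehyde-crosslinked chromatin with a rabbit polyclonal antibody, at 5 µg per immunoprecipitation, per the labels' protocols. Bowtie, MACS, bedtools and HOMER and the dm3 build were used, per the submitters' processing notes. Tool versions, the threshold for peaks and whether inputs served as background were not given in the sources used here. Per library, the authors deposited 1 peak list, with a score per peak and no normalization between libraries. The scale of the score is not stated, and no peak scores under 50.00. Read depth is unknown, as the lists hold no read counts.

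Groups were taken from the sample titles. The prefix of sequence names in the Kc lists was removed, and starts were read as 0-based and are printed 1-based. Peaks were shared when they overlapped by at least 1 bp. Arm densities used the farthest peak end of the 3 lists as arm length. Intervals are exact (Clopper-Pearson) 95% intervals, from scipy 1.17.1 in Python 3.11.15. The overlap code was checked on simulated peaks of known overlap before use. With 1 library per condition no p-value was computed. Alternatives changed the overlap rule, the score minimum, the list length, the joining of peaks and the windows. Every site of each locus is named, by rule. The loci, windows and comparisons were chosen with earlier results of these data known.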

Additional observations from a re-analysis of the deposited data

How the results depend on the processing

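Of 120 values recomputed under another setting, 98 kept within the bounds set for them, which were the exact interval of the main share or 1.5 times a count, length or rank. Joining peaks across 200 bp and requiring the peak centre in the window changed no value. The intervals of the shares are also wide, so the count of 98 is no measure of robustness. A score of 100 or more moved most values. It left 8 of 11 control peaks of the loci (72.7%) without a CP190 RNAi peak, beside 54.5% of all control peaks at that score. That share rests on few peaks, and no interval was computed for it. At br the minimum left 1 control and 2 CP190 RNAi peaks. Eip74EF kept 6 control, 2 CP190 RNAi and 2 S2 peaks, and Eip75B 4 control, 3 CP190 RNAi and 7 S2 peaks. Covered bases fell to 13191 in the control, 11184 after CP190 RNAi and 10340 in S2 cells, from 21968, 31929 and 19652. Windows narrower by 10 kb at each end gave 13809 covered bases in the control and 12926 in S2 cells, and 3 S2 peaks at Eip74EF. Wider windows gave 1 S2 peak at br, and 21 control peaks at the 3 loci together, beside 23 after CP190 RNAi. With lists of equal length (4228 peaks) br had 2 control peaks. By width, the top-scored peaks ranked 3660 (control) and 3404 (CP190 RNAi) at br. At Eip74EF they ranked 2085, 1415 and 2651, and at Eip75B 2744, 145 and 2394, in the order control, CP190 RNAi and S2. Apart from the score minimum, the share of control peaks without a CP190 RNAi peak ran from 35.3 to 52.4%, and that of CP190 RNAi peaks without a control peak from 56.5 to 68.4%. With the score minimum the latter was 57.1% (4 of 7). Apart from the 54.5% given above, the whole-list shares were not computed at these settings. The other values therefore cannot be set beside the lists. What moved the values was not tested. No paired analysis was possible because there is 1 library per condition, and for the same reason no library could be left out.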
